A study of Mus musculus with 26 samples.

Results

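WT bone marrow monocytes were compared with WT small peritoneal macrophages (SPMs) across all genes. The comparison rested on 8 of the 26 samples of the series, with 4 monocyte and 4 SPM samples. The members were chosen by label: every sample labelled WT and as a bone marrow monocyte or an SPM, and no ACKR2-/- or lung sample. The mice were naïve, young adult WT females of the C57BL/6J strain, bought from Charles River, and no treatment or transgene was given. As the methods of the study state, each sample held cells of 5 mice sorted by flow cytometry, so a sample is a pool and the spread between animals was not measured. The markers of the sort included CD45+ Ly6G- SiglecF- F4/80- CD11b+ Ly6C+ for monocytes and CD45+ CD11b+ F4/80 mid MHCII+ for SPMs. The monocytes were taken from the marrow and were not traced to the SPMs.

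Monocytes are made in the bone marrow from dividing progenitors, leave it by way of the chemokine receptor CCR2 and can become macrophages in tissues. The peritoneal cavity holds a large and a small population of macrophages. Large peritoneal macrophages are long-lived, carry much F4/80 and depend on the transcription factor GATA6. SPMs are renewed from monocytes and carry much MHC class II, the molecule that shows peptides to CD4+ T cells. ACKR2 is a scavenging receptor that takes up inflammatory CC chemokines, and the samples compared here had an intact Ackr2 gene.

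Cell type and sequencing table coincide: all monocyte counts come from a table made for monocytes and all SPM counts from another made for SPMs. Differences of cell type therefore cannot be told apart from differences of library preparation, sequencing or counting. Between 15450670 and 19155310 reads per monocyte sample and between 12781144 and 29474570 per SPM sample were counted on genes. Of these reads, 15.1% to 18.4% in monocytes and 37.1% to 40.4% in SPMs fell on the 10 most read genes. Values are counts per 1000000 (CPM), scaled by TMM factors of 1.41 to 1.55 in monocytes and of 0.615 to 0.822 in SPMs. Median log2 fold changes (SPMs over monocytes) were 0.45 in the shortest of 4 near-equal classes of gene length and -0.15, -0.30 and -0.14 in the other 3. The library WT SPM 1 stood apart from the other SPM libraries. Its TMM factor of 0.822 was the highest of the 4, and each count below was repeated without it. Of the tested genes, 335 had been counted differently in both tables. Their lengths differed by over 5%, they overlapped a gene found in 1 table, or they lay where the monocyte table lists extra scaffolds. The last reason also used the values, as it required at most 0.5 CPM in every sample of the monocyte table. Its regions were placed by genes with a mean of at least 3 CPM in the SPM table, so its genes could hardly be called lower. In the set of 335, 126 genes (37.6%) were called higher and 88 (26.3%) lower in SPMs, of which 60 and 0 were set by the last reason. Leaving out the 335 moved the count of rises or of falls in any gene list below by at most 2.

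Of 12741 genes tested, 3058 were higher in SPMs (24%) and 3461 were lower (27.2%), or 51.2% in either direction. A gene was called by edgeR's quasi-likelihood test where its Benjamini-Hochberg adjusted p was under 0.05 and its log2 fold change was above 0.5 or below -0.5. The median log2 fold change over all tested genes was -0.06. A gene could pass the filter on low counts through 1 cell type alone. The 97 tested genes without a monocyte count and the 69 without an SPM count were all called. At over 4-fold, 1214 genes were higher (9.53%) and 1140 were lower (8.95%). The 4 values of one cell type lay entirely above those of the other for 2819 genes that were higher (22.1%) and 3659 that were lower (28.7%). Without WT SPM 1 the calls were 3915 higher and 4447 lower. The balance of both directions depends on the scaling. When libraries were scaled on the summed counts of 20 housekeeping genes, the median moved to -1.65, with 912 genes called higher and 9024 lower. Actb and B2m weighed heavily in that sum, which was 14800 to 17190 CPM in monocytes and 38300 to 67810 CPM in SPMs. Actb averaged 7128 and 31700 CPM in them and B2m 2385 and 13060 CPM, while the list's median log2 fold change was 0.25. Where the balance of rises and falls in a gene list turns under that scaling, the counts under it are given.

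**Figure D1:**
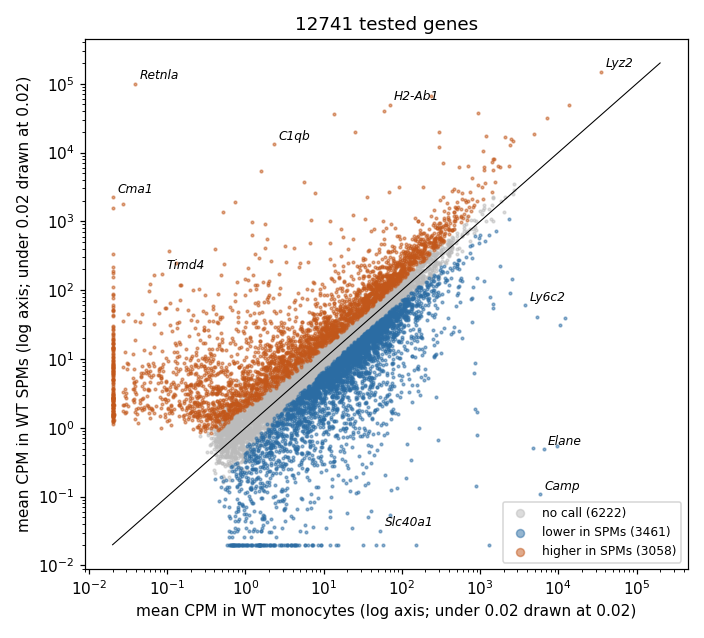
Each point is 1 of 12741 tested genes, with its mean CPM in WT monocytes on the horizontal and in WT SPMs on the vertical axis (n = 4 each, both log axes, values under 0.02 drawn at 0.02), and the line marks equal means. The 3058 genes called higher in SPMs include Retnla at the top left, and the 3461 called lower include Camp and Elane at the bottom right.

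The genes of the sort chose the cells, so they are a check of the labels and not a result. Of 11 tested, 6 were higher and 4 lower in SPMs, or 4 and 6 under scaling on housekeeping genes. Ly6c2, which encodes the Ly6C protein of the monocyte gate and lies at chr15:75108158-75111970 of GRCm38 (mm10), was at 3331, 4179, 3814 and 3831 CPM in the 4 monocyte samples and at 24.1, 80.3, 64.5 and 72.0 CPM in the SPM samples. The groups did not overlap, and the SPMs had a low level in every sample. Adgre1, the gene of F4/80, averaged 61.2 ± 11.4 CPM (SD, n = 4) in monocytes and 104 ± 21.4 in SPMs. Adgre1 transcript was thus present in cells sorted as F4/80-, and its log2 fold change of 0.77 turned to -0.90 under scaling on housekeeping genes. Itgam (CD11b), required in both gates, averaged 41.4 ± 2.68 and 193 ± 103 CPM. Ptprc (CD45) averaged 210 ± 33.4 and 275 ± 126 CPM. Transcripts of gated-out proteins were also present in monocytes, where Ly6g averaged 7.66 ± 3.04 CPM and Siglecf 9.75 ± 1.97 CPM, above the 0.321 ± 0.277 and 0.819 ± 0.313 CPM of SPMs.

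The other 3 marker genes were all higher in SPMs. Alox15, a lipoxygenase gene of peritoneal macrophages and eosinophils at chr11:70344152-70352031, was at 2.19, 1.25, 1.59 and 2.13 CPM in monocytes and at 76.3, 401, 499 and 682 CPM in SPMs. Its log2 fold change was 7.85 ± 0.68 (SE, adjusted p = 6.21e-06), with WT SPM 1 well below the other 3. Folr2, the folate receptor beta gene at chr7:101839988-101857194, was at 0.0840, 0.161, 0 and 0.0723 CPM in monocytes and at 35.9, 49.9, 51.1 and 48.0 CPM in SPMs. This gave a log2 fold change of 9.11 ± 0.44 (SE, adjusted p = 1.62e-07). Lyve1, which encodes a hyaluronan receptor and lies at chr7:110850607-110863239, was at 0, 0.0804, 0.108 and 0.144 CPM in monocytes and at 35.7, 20.9, 19.9 and 19.8 CPM in SPMs. Its log2 fold change was 8.03 ± 0.49 (SE, adjusted p = 6.44e-07), and here WT SPM 1 was the highest. In neither Folr2 nor Lyve1 did any monocyte value come near an SPM value. In bulk samples a level set by fewer cells of a kind cannot be told apart from less RNA in each cell.

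**Figure D2:**
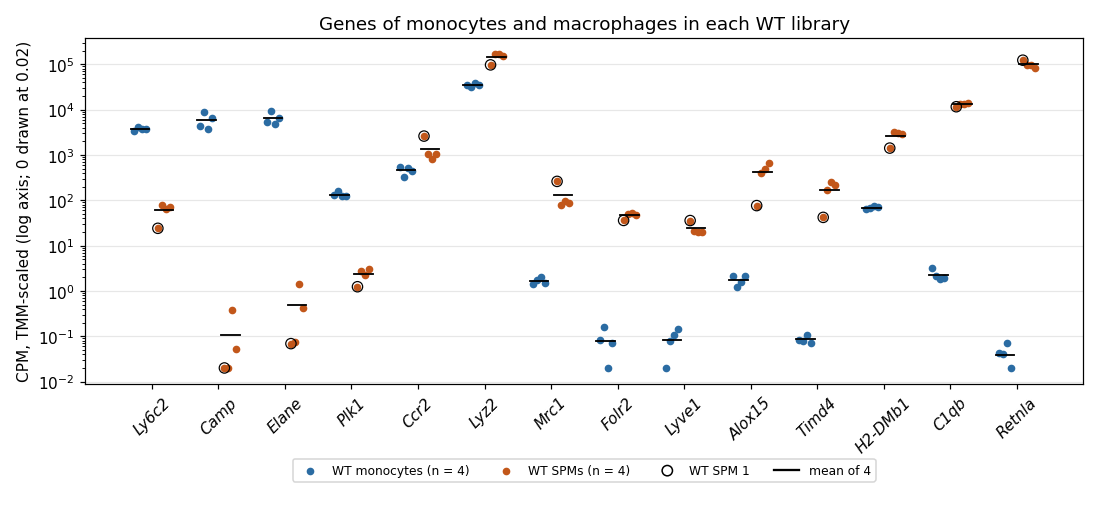
CPM of 14 genes in each WT library (log axis, 0 drawn at 0.02), with monocytes in blue, SPMs in orange, WT SPM 1 ringed and the mean of 4 as a bar. Retnla and C1qb separate the cell types most widely upwards and Camp and Elane downwards, while Alox15 and Timd4 are lowest in WT SPM 1 and Mrc1 and Lyve1 highest.

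The most read genes differed between the cell types apart from a pair they shared. In monocytes the 5 genes of highest mean CPM were Lyz2, Tmsb4x, S100a9, S100a8 and Ngp, and in SPMs they were Lyz2, Retnla, Cd74, Tmsb4x and H2-Ab1. Retnla, a secreted resistin-like protein of alternatively activated macrophages, was at 0.0420, 0.0402, 0.0723 and 0 CPM in monocytes and at 123200, 98580, 96340 and 83780 CPM in SPMs. It rose by 21.10 ± 0.54 on the log2 scale (SE, adjusted p = 1.14e-08), on only 4 counts in the 4 monocyte libraries together. Per kb of gene length, Retnla in SPMs stood at 167700 CPM per kb and Lyz2, the lysozyme gene of myeloid cells, at 112100. Lyz2 was already high in monocytes, with 35200 ± 3288 CPM (SD, n = 4) against 147500 ± 35100 in SPMs. Its log2 fold change of 2.07 ± 0.26 (SE, adjusted p = 7.79e-05) fell to 0.40 under scaling on housekeeping genes and was then not called. Reads of Lyz2 and of its neighbouring near copy Lyz1 may have been shared between them.

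The largest rises by fold came in 2 sets of genes. By the rule of largest fold the 12 leading genes would also include Cdk2ap2, Ehd1, Guca1a, Ranbp1, Rasgrp2 and Mpv17l2, at or near 0 in the monocyte table and behind Retnla, Cma1, Tpsb2 and Mcpt4. Cdk2ap2, for example, was at 0, 0, 0 and 0.108 CPM in monocytes and at 1201, 1917, 2062 and 1849 CPM in SPMs. These genes belong to the 335 that were counted differently, so their zeros cannot be told apart from reads assigned elsewhere in the monocyte table. They were set aside after their values were seen. Of the genes that remained, the 12 with the largest rises were Retnla, Cma1, Tpsb2, Mcpt4, Mucl1, C1qb, C1qc, Ltc4s, Lyz1, Fcrls, C1qa and Aldh1a2. The complement genes C1qa, C1qb and C1qc, which encode the chains of the recognition molecule C1q, rose together, and C1qb went from 3.15, 2.17, 1.88 and 1.95 CPM to 11580, 13090, 13620 and 14180 CPM. For C1qb the log2 fold change was 12.48 ± 0.34 (SE, adjusted p = 1.21e-08). Ltc4s, the leukotriene C4 synthase gene, averaged 0.106 ± 0.0573 CPM in monocytes and 370 ± 137 in SPMs, and Aldh1a2, which makes retinoic acid, averaged 0.0677 ± 0.0517 and 168 ± 39.5 CPM. Cma1, Tpsb2 and Mcpt4 encode mast cell proteases and are described with the other cell types below.

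In the other direction, the largest falls were in genes of neutrophil granules and myeloid progenitors. The 12 leading genes were Fcnb, Camp, Prss57, Ngp, Elane, Mpo, Ms4a3, Slc40a1, Mogat2, Ltf, Adgrg3 and Lcn2. Fcnb, a ficolin that binds sugars on microbes, was at 1040, 2044, 899.9 and 1238 CPM in monocytes and at 0 in every SPM sample. Against a floor of 3 counts in each SPM library, this is at least 5411-fold lower in SPMs. Camp, the cathelicidin gene, was at 4338, 8901, 3705 and 6478 CPM in monocytes and at 0, 0, 0.383 and 0.0520 CPM in SPMs. Elane, neutrophil elastase, fell by 13.95 on the log2 scale (SE 0.76, adjusted p = 3.22e-07), and Mpo, myeloperoxidase, by 13.30 (SE 0.89, adjusted p = 1.09e-06). Slc40a1 encodes the iron exporter ferroportin, and its fall from 52.7 ± 15.5 to 0.0319 ± 0.0638 CPM stood among these granule genes.

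Classical monocyte genes mostly fell, with exceptions. Of 17 tested, 13 fell and 4 rose, with a median log2 fold change of -3.10. S100a8 and S100a9, the subunits of calprotectin, fell by 8.4 (SE 0.78) and 8.28 (SE 0.94). Chil3, a chitinase-like protein, fell by 7.06 on that scale (SE 0.44, adjusted p = 6.68e-07), Hp (haptoglobin) by 4.51 and Plac8 by 2.99. The 4 that rose were Lyz2, S100a4, Fn1 and Ccr2, and under scaling on housekeeping genes none of these was called higher. Ccr2 was at 541, 326, 525 and 437 CPM in monocytes and at 2607, 1035, 826 and 1030 CPM in SPMs. The groups did not overlap, WT SPM 1 was far above the other SPMs, and the log2 fold change of 1.59 ± 0.36 (SE, adjusted p = 0.00401) shrank to 0.065 under that scaling. Fn1, fibronectin, likewise stood at 4107 CPM in WT SPM 1 and at 1010 to 1167 in the other 3, against 271 to 458 in monocytes. Of 9 nonclassical monocyte genes, 5 fell and 1 rose, and Cx3cr1, the fractalkine receptor, fell by 0.94 (SE 0.25, adjusted p = 0.00895).

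Progenitor and granule genes fell further still. Of 18 tested, 16 fell and none rose, with a median of -6.62, and their summed level was 20840 to 49190 CPM in monocytes and 96.6 to 248 CPM in SPMs. DESeq2 called 1 member higher, and without WT SPM 1 edgeR called 2 higher. The members included the azurophil granule proteases Ctsg and Prtn3, which fell by 6.62 (SE 0.69) and 4.76 (SE 0.30). The transcription factors Gfi1 and Cebpe of granulocyte precursors fell by 6.62 (SE 0.29) and 3.82 (SE 0.35), and Myb, a factor of dividing progenitors, by 5.18 (SE 0.29). Within the monocytes these genes were highest in 1 library, WT monocyte 2, for Elane, Camp and Mpo alike. Several of them are also neutrophil markers, whose levels are given below.

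Cell cycle and DNA replication genes were lower in SPMs almost throughout. Of 45 tested, 41 fell and 2 rose, with a median of -3.38, and the counts were 43 and 2 under scaling on housekeeping genes. Their promoters are shown for Plk1, Ccnb2 and Cdc20, which act in mitosis and fell far. The bases are the 250 upstream of the RefSeq start on GRCm38.p6, 5′ to 3′ on the strand of the gene, with capitals marking CCAAT or TTTGAA on either strand (ATTGG and TTCAAA on the other). CCAAT is bound by the factor NF-Y and TTTGAA is the CHR element of genes kept silent outside division, which is background and not a result. Plk1 lies on the plus strand and Ccnb2 and Cdc20 on the minus strand, and the windows are chr7:122159185-122159434, chr9:70421555-70421804 and chr4:118437344-118437593.
Plk1: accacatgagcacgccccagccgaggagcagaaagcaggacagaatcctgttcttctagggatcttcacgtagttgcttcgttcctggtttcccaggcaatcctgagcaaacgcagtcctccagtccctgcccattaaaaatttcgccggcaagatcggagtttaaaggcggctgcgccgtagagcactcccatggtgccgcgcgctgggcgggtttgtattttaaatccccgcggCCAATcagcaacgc
Ccnb2: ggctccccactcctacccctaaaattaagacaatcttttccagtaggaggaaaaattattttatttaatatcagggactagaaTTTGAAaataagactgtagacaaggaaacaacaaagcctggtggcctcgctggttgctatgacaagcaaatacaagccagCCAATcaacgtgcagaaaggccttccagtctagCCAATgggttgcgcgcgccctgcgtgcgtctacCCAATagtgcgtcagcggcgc
Cdc20: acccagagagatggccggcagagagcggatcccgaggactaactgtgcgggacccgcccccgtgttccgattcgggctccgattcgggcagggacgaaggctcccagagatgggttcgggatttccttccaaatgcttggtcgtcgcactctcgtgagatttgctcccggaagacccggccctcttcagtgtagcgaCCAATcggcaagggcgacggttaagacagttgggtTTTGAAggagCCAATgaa
Ccnb2 held 3 CCAAT and 1 TTTGAA, Cdc20 held 2 and 1, and Plk1 held 1 and 0. CCAAT was found in 27 of the 36 list members with a promoter sequence (75%), against 37.5% of all 27025 genes with one, 41.1% of those tested and 44.3% of those called lower. TTTGAA was found in 10 of the 36 (27.8%), against 18.3% of all. A match in these windows is a description of letters and not evidence of binding.

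Among these genes, Plk1, a kinase that starts and orders mitosis, was at 129, 160, 121 and 122 CPM in monocytes and at 1.24, 2.78, 2.30 and 3.02 CPM in SPMs. It fell by 5.82 on the log2 scale (SE 0.29, adjusted p = 1.87e-07). Cdc20, which activates the anaphase-promoting complex, was at 179, 218, 182 and 191 CPM against 1.65, 5.57, 6.25 and 6.4 CPM. Ccnb2, a mitotic cyclin, was at 254, 289, 246 and 295 CPM against 3.51, 11.6, 14.8 and 17.1 CPM. For all of these the groups were far apart, with WT SPM 1 the lowest SPM library each time. Mki67, the proliferation antigen, fell by 4.58 (SE 0.25), Top2a by 4.39 (SE 0.23), Ccnb1 by 5.32 (SE 0.47) and Bub1 by 5.47 (SE 0.40). The genes that rose were both D-type cyclins of the G1 phase. Ccnd1 went from 0.432 ± 0.274 to 34.6 ± 15.4 CPM (SD, n = 4), and Ccnd2 from 15.1 ± 3.52 to 178 ± 54.0 CPM. Gins2 and E2f1 were not called, with log2 fold changes of -0.53 (adjusted p = 0.167) and -0.40 (adjusted p = 0.144). Under scaling on housekeeping genes both were called lower, at -2.20 and -2.08.

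MHC class II presentation genes moved the other way. Of 20 tested, 17 rose and none fell, with a median of 4.35, and 13 rose and 3 fell under scaling on housekeeping genes. Their summed level was 1519 to 2009 CPM in monocytes and 153400 to 207000 CPM in SPMs. Because SPMs were sorted on MHCII, its chains H2-Aa, H2-Ab1 and H2-Eb1 are no finding, and their log2 fold changes were 9.39, 9.48 and 9.66. The promoter of H2-Aa is shown beside that of H2-DMb1, a chain of the peptide loader H2-DM that no gate used, with capitals on CCAAT or its complement ATTGG, the Y box of class II promoters. H2-DMb1 lies on the plus strand, in a window at chr17:34152941-34153190, and H2-Aa on the minus strand, at chr17:34287824-34288073, again 250 bases upstream on GRCm38.p6 from RefSeq.
H2-DMb1: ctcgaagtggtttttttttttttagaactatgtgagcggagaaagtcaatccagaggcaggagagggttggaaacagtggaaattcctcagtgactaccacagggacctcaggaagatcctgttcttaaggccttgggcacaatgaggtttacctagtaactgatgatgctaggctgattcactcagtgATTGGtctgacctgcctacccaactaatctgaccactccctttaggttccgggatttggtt
H2-Aa: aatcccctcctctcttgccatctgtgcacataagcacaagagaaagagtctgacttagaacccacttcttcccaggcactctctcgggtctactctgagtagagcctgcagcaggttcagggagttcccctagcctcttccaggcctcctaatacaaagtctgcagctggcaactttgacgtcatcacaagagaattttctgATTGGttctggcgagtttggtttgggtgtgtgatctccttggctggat
Each held 1 match. In the class II list 10 of 15 members with a promoter held CCAAT (66.7%), against the same 37.5% of all genes and 39.9% of those called higher.

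H2-DMb1 was at 64.3, 67.6, 74.1 and 69.5 CPM in monocytes and at 1417, 3155, 2976 and 2957 CPM in SPMs, a log2 fold change of 5.25 ± 0.30 (SE, adjusted p = 3.87e-07). H2-DMa, its partner, rose by 4.08 ± 0.24. In both, WT SPM 1 lay below the other SPM samples and still far above every monocyte. Ciita, the coactivator that switches class II genes on, was at 2.44, 1.53, 1.95 and 1.88 CPM against 199, 107, 73.0 and 103 CPM (log2 fold change 5.95 ± 0.36). Cd74, the invariant chain that guides class II to endosomes, rose by 8.13 ± 0.28 (adjusted p = 3.13e-08). Ctss and Ifi30, which cut the invariant chain and reduce disulfides in antigen, rose by 2.48 ± 0.34 and 8.24 ± 0.28. Cd86, a costimulatory ligand for T cells, went from 19.1 ± 3.39 to 70.6 ± 22.3 CPM (SD, n = 4), and its log2 fold change of 1.89 became 0.24 under scaling on housekeeping genes.

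**Figure D3:**
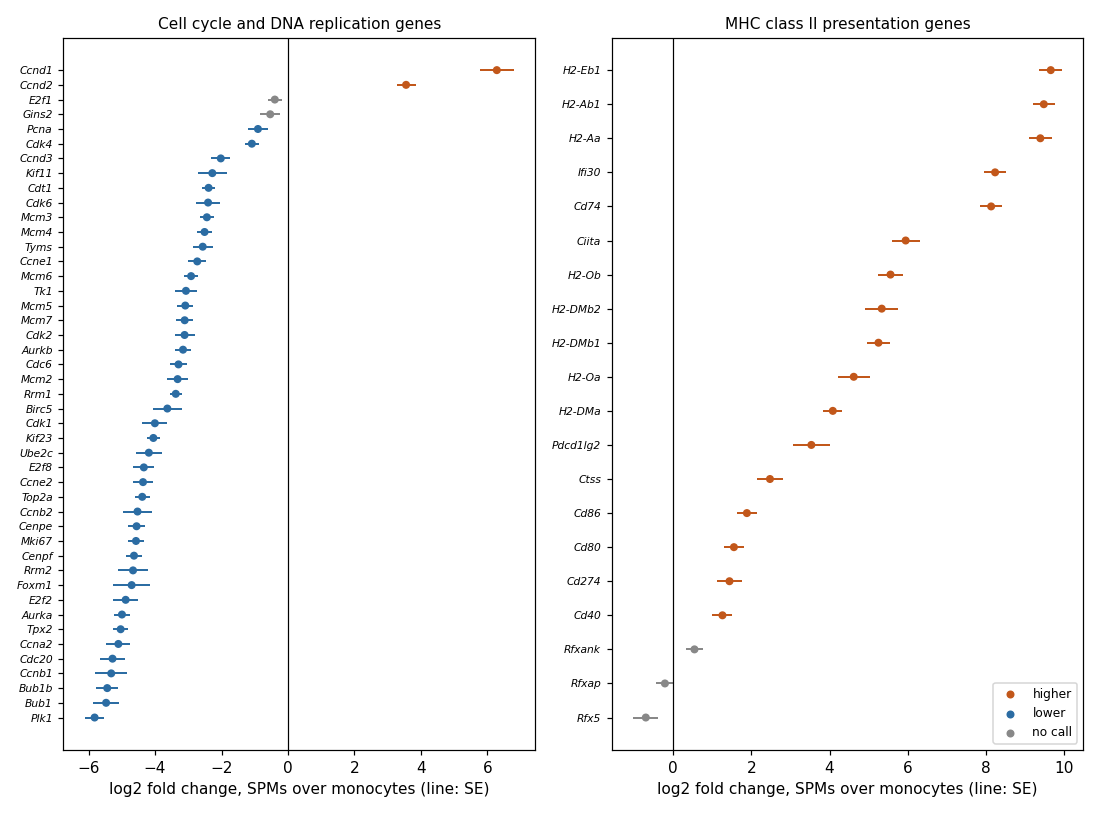
Log2 fold change (SPMs over monocytes) of each tested member of the cell cycle list (left, 45 genes) and the MHC class II list (right, 20 genes), with lines for the standard error and colours for the call. In the cell cycle list 41 members are lower and Ccnd1 and Ccnd2 higher, and in the class II list 17 are higher and none lower.

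Core macrophage genes rose in SPMs, with 22 of 30 higher and 4 lower, and a median of 2.88. The rises included Mertk, a receptor for dying cells, from 0.335 ± 0.139 to 26.4 ± 4.04 CPM (log2 fold change 6.29 ± 0.33, adjusted p = 2.6e-07). Apoe, a lipid carrier, rose from 299 ± 134 to 19630 ± 4313 CPM, and Cd36, a scavenger receptor for oxidised lipid, from 1.33 ± 0.232 to 340 ± 85.7 CPM. The scavenger receptor Marco, the complement receptor Vsig4 and the lipid transfer protein Pltp rose by 10.21, 9.18 and 9.38. Mrc1, the mannose receptor, was at 1.43, 1.73, 2.02 and 1.52 CPM in monocytes and at 261, 79.3, 94.4 and 85.2 CPM in SPMs, with WT SPM 1 the highest. Maf, a factor that holds macrophages out of division, rose by 4.03 ± 0.66. The 4 that fell were Fcgr1, Cd63, Dok3 and Gpnmb. Gpnmb was at 0.686 to 1.22 CPM in monocytes and at 0 in all SPM libraries, at least 3.78-fold lower there against the floor of 3 counts. Csf1r, the receptor for the growth factor of monocytes and macrophages, was at 194, 127, 185 and 132 CPM in monocytes and at 431, 190, 146 and 240 CPM in SPMs. These values overlapped and Csf1r was not called (log2 fold change 0.66 ± 0.32, adjusted p = 0.109), although DESeq2 called it at 0.81 and edgeR did without WT SPM 3, at 0.91.

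Genes of tissue-resident macrophages that carry Folr2 and Lyve1 were higher in SPMs throughout. All 14 of the list's 16 members that could be tested rose, with a median of 6.46, 12 of them also under scaling on housekeeping genes. Members near 0 in monocytes, such as Folr2 with 8 counts and Timd4 with 9, passed the filter through the SPM libraries alone. A fall was hardly open to them, so their part in this count is no support. Timd4, a receptor for phosphatidylserine, was at 0.0840, 0.0804, 0.108 and 0.0723 CPM in monocytes and at 42.0, 171, 256 and 218 CPM in SPMs (log2 fold change 10.86 ± 0.71, adjusted p = 9.4e-07). Ccl24, an eosinophil attractant, Fcna, a ficolin, and Igf1, a growth factor, rose by 8.77, 9.03 and 5.69. Pf4, a chemokine of platelets and of these macrophages, rose by 6.64 ± 0.75. As both Pf4 and Timd4 also mark other cells, the markers of those cells bear on them and are given below.

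Large peritoneal macrophage genes were present in the SPM samples. Of 21 tested, 19 rose and 1 fell, with a median of 7.06. Their sum was 1857 CPM in WT SPM 1 and 4814, 8038 and 6595 CPM in the other 3, against 576 to 606 CPM in monocytes. Saa3, an acute phase protein, averaged 7.80 ± 9.02 and 2569 ± 1356 CPM. Cxcl13, which attracts B cells, rose by 10.78 ± 0.80, Prg4 (lubricin) by 7.62 ± 0.24, Icam2 by 2.88 ± 0.34 and Rarb, a retinoic acid receptor, by 5.88 ± 0.69. Gata6, the defining factor of the large population, was at 3.58, 1.32, 3.06 and 3.43 CPM in SPMs and at 0 to 0.0420 CPM in monocytes, and it is among the genes counted differently. Lbp, the 1 member that fell, binds lipopolysaccharide and dropped by 3.58 (SE 0.34). How far cells of the large population in the SPM gate made up these levels was not tested.

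SPM and dendritic cell genes gave 15 rises and 3 falls of 22, with a median of 2.46. Cd226, an adhesion receptor that marks SPMs, was at 0.126, 0.0804, 0.361 and 0.0361 CPM in monocytes and at 71.0, 140, 128 and 135 CPM in SPMs. Its log2 fold change was 9.54 ± 0.51 (SE, adjusted p = 2.71e-07). Irf4, a factor of these cells, rose by 3.14 ± 0.49, Batf3 by 5.64 ± 0.19, and Ccr7, the receptor for migration to lymph nodes, by 5.28 ± 0.50. Cd209a, a C-type lectin of monocyte-derived dendritic cells, averaged 33.9 ± 3.88 and 1094 ± 656 CPM. Irf8, which directs monocyte and dendritic progenitors, fell from 261, 269, 276 and 248 CPM to 10.2, 11.5, 9.05 and 15.7 CPM. It fell by 4.49 on the log2 scale (SE 0.22, adjusted p = 1.57e-07), and the tight groups lay far apart.

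**Figure D4:**
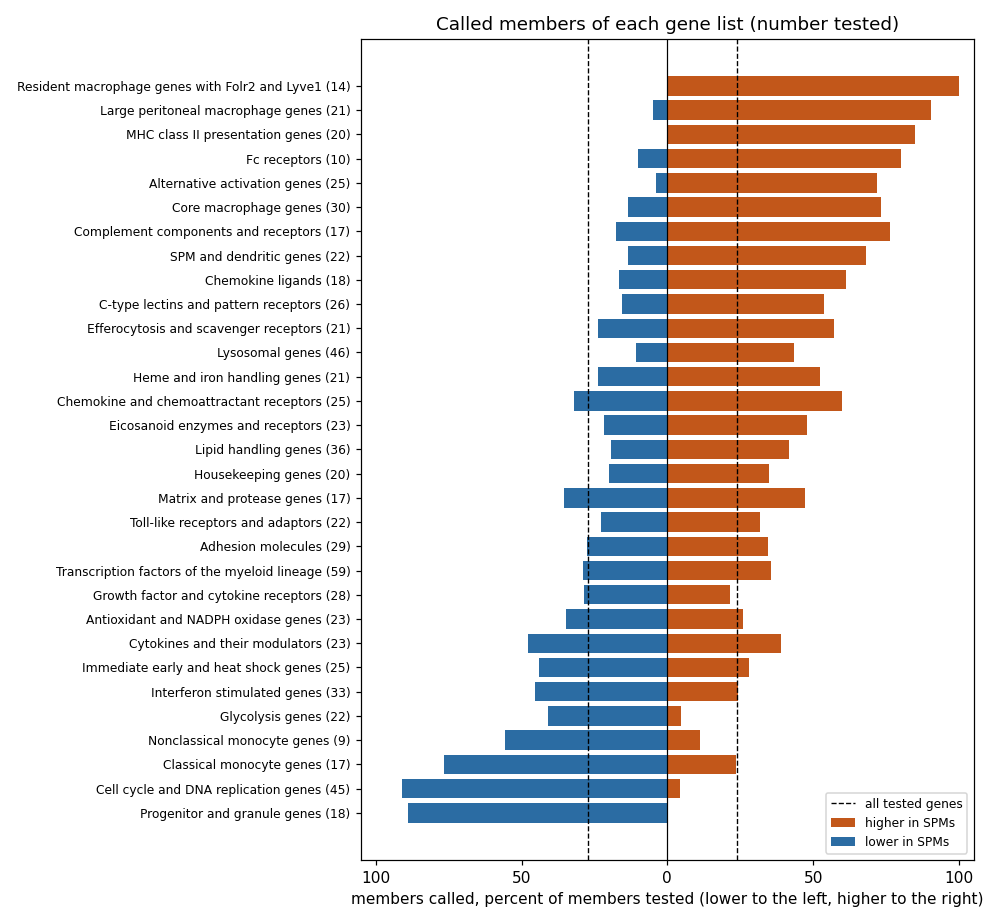
Share of the tested members of each gene list that were called higher (orange, to the right) or lower (blue, to the left) in WT SPMs, with the number tested in brackets and dashed lines at the shares over all tested genes (24% and 27.2%). Resident macrophage, large peritoneal macrophage and class II genes lie far to the right, and cell cycle and progenitor genes far to the left.

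Of 59 transcription factors of the myeloid lineage, 21 rose and 17 fell (11 and 32 under scaling on housekeeping genes), where 24% and 27.2% of all tested genes did. Id1 and Id3 encode inhibitors of the same class of helix-loop-helix factors and went opposite ways. Id1 was at 37.8, 43.6, 39.8 and 47.9 CPM in monocytes and at 0.138, 1.32, 0.765 and 1.04 CPM in SPMs, a fall of 5.67 on the log2 scale (SE 0.44, adjusted p = 2.9e-06). Id3 was at 0.882, 0.523, 1.3 and 0.542 CPM against 12.9, 58.2, 51.4 and 71.1 CPM, a rise of 5.88 (SE 0.57, adjusted p = 1.35e-05). Pparg, a lipid-sensing receptor, rose by 2.81 ± 0.36 and Egr1 by 4.16 ± 0.59, whereas Tfec fell by 6.42 (SE 0.45). Stat6, which carries signals of IL-4, was at 61.3 to 77.1 CPM and at 32.9 to 97.9 CPM, and was not called (log2 fold change -0.36, adjusted p = 0.358). Nfkb1 was at 59.0 to 66.5 CPM in monocytes and at 66.5, 23.4, 25.6 and 26.2 CPM in SPMs, and narrowly missed the threshold (-0.83, adjusted p = 0.0519). Without WT SPM 1 both were called lower, at -0.67 and -1.20. Nfkb1 was also called lower under other settings given below and in the ACKR2-/- comparison (-0.96).

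Chemoattractant receptors were split, with 15 rises and 8 falls among 25 tested (10 and 11 under scaling on housekeeping genes). Ackr2 itself was too low to test. It had 2 counts in all monocyte libraries and 29 in all SPM libraries, at 0, 0, 0.0723 and 0 CPM and at 0.344, 0.586, 0.893 and 0.468 CPM. The groups did not overlap (exact two-sided permutation p = 0.0286, the smallest that 4 against 4 allows), and 3 counts were worth 0.108 to 0.126 CPM in monocytes and 0.156 to 0.383 CPM in SPMs. Ccr1, a receptor for inflammatory CC chemokines, rose by 2.05 ± 0.27 and was at 0.35 and not called under scaling on housekeeping genes. The complement peptide receptors C3ar1 and C5ar1 rose by 6.52 ± 0.32 and 2.42 ± 0.33, and S1pr1, which guides exit from tissue along sphingosine phosphate, by 6.27 ± 0.33. Cxcr4, which holds cells in the marrow, was at 13.8, 16.3, 16.6 and 13.2 CPM in monocytes and at 0.620, 2.64, 1.40 and 2.76 CPM in SPMs. It fell by 2.98 (SE 0.40, adjusted p = 0.000125). Cxcr2, a neutrophil receptor, fell by 4.78 (SE 0.38).

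Of the chemokine ligands, 11 of 18 tested rose and 3 fell, with a median of 4.42. Ccl6 and Ccl9, CC chemokines of myeloid cells, were abundant in both and rose from 952 ± 207 to 37930 ± 7901 CPM and from 533 ± 120 to 6127 ± 894 CPM. Ccl5, which attracts T cells and monocytes, rose by 6.44 ± 0.50. The 3 that fell were Ccl3 by 3.84 (SE 0.47), Cxcl10 by 3.93 (SE 0.51) and the platelet chemokine Ppbp by 6.24 (SE 1.34). Ppbp was uneven among monocytes, at 1.34, 5.19, 26.5 and 1.08 CPM. Cytokines gave 9 rises and 11 falls among 23 tested, and their receptors 6 and 8 among 28 (2 and 20 under scaling on housekeeping genes). Over all tested genes 24% rose and 27.2% fell, near the shares of the receptors. Il1b and Il18, cytokines released through inflammasomes, rose by 3.71 ± 0.34 and 2.40 ± 0.26, and Il1r2, the decoy receptor of IL-1, fell by 4.66 (SE 0.41). Vegfa, Inhba and Osm fell by 5.73, 5.92 and 3.29. Tgfb1 was at 26.8, 33.1, 33.0 and 25.9 CPM in monocytes and at 17.6, 8.64, 5.23 and 9.57 CPM in SPMs, a fall of 1.52 (SE 0.32, adjusted p = 0.00248), while Tgfb2 rose by 7.98 ± 0.67 from near 0.

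Complement genes rose in 13 and fell in 3 of 17 tested, with a median of 4.41. Beside the C1q chains, C4b rose from 0.448 ± 0.296 to 86.5 ± 43.4 CPM, and Cfp, properdin of the alternative pathway, from 331 ± 26.8 to 7017 ± 2538 CPM. C3, the central component, went the other way, from 274, 265, 243 and 238 CPM in monocytes to 19.0, 9.89, 4.97 and 8.43 CPM in SPMs. Its fall of 4.58 (SE 0.37, adjusted p = 4.1e-06) held in every sample. Of 10 Fc receptor genes, 8 rose and 1 fell. Fcgr3, Fcgr4 and their signalling chain Fcer1g rose by 2.64, 4.07 and 2.43, and the high-affinity receptor Fcgr1 fell from 49.6 ± 7.95 to 16 ± 8.22 CPM. Toll-like receptors and their adaptors lay near the 24% higher and 27.2% lower of all tested genes. They gave 7 rises and 5 falls of 22 (2 and 14 under scaling on housekeeping genes), with Tlr2 falling by 2.55 (SE 0.24). Their partner Cd14, a receptor for lipopolysaccharide, rose by 4.28 ± 0.41. C-type lectins and pattern receptors gave 14 rises and 4 falls of 26 (8 and 11 under that scaling).

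Efferocytosis and scavenger receptors rose in 12 and fell in 5 of 21 tested (8 and 9 under scaling on housekeeping genes). Axl, a receptor of the family of Mertk, rose by 3.23 ± 0.33, and Scarb1, which takes up lipoprotein cholesterol, fell by 2.35 (SE 0.19). Lysosomal genes gave 20 rises and 5 falls of 46, with a median of only 0.54, and 3 rises and 30 falls under that scaling. The falls numbered 3 without WT SPM 2 or without WT SPM 3. Among them the proteases Ctsd and Ctsh rose by 2.64 ± 0.21 and 2.15 ± 0.30, the second being 0.46 and not called under that scaling. Their summed level was 14680 CPM in WT SPM 1, near the 10720 to 12090 CPM of monocytes, and 28510 to 29170 CPM in the other SPMs. Lipid handling genes gave 15 rises and 7 falls of 36 (7 and 19 under that scaling). Lpl, lipoprotein lipase, rose from 57.2 ± 19.1 to 732 ± 100 CPM, and Abca1, Scd1 and Fabp4, for cholesterol export, desaturation and fatty acid binding, rose by 3.75, 6.69 and 5.14. Dgat2, which completes triglycerides, was at 34.2, 47.7, 23.5 and 31.9 CPM in monocytes and at 0.275, 0.220, 0.255 and 0.312 CPM in SPMs.

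Heme and iron genes rose in 11 and fell in 5 of 21 tested (6 and 9 under scaling on housekeeping genes). The ferritin chains Fth1 and Ftl1, which store iron, rose from 1098 ± 122 to 10540 ± 2467 CPM and from 2480 ± 152 to 15600 ± 1802 CPM. Blvrb, of heme breakdown, rose by 3.10 ± 0.21, and Hmox1, heme oxygenase, by 1.5 ± 0.27 (-0.25 under that scaling). On the other side, the transferrin receptor Tfrc fell by 1.74 (SE 0.39), the heme synthesis enzyme Alas1 by 3.69 (SE 0.26) and the exporter Slc40a1 by 11.06 (SE 0.57).

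Genes of alternative activation, the state that IL-4 and IL-13 induce in macrophages, rose in 18 and fell in 1 of 25 tested, with a median of 3.14. Without WT SPM 1 edgeR called 18 higher and 3 lower. In this list Chil3 was the member that fell, and Retnla rose by far the most. The promoter of Retnla is shown with capitals on TTC and GAA with any 4 bases between them, the letters that STAT6 is known to bind, in the 250 bases upstream of the RefSeq start (chr16:48842359-48842608, plus strand, GRCm38.p6).
Retnla: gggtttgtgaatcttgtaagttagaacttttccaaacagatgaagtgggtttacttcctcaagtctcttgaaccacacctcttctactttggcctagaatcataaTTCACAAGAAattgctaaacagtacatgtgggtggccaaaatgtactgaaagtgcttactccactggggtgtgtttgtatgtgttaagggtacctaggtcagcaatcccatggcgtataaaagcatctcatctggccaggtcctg
The motif reads the same on both strands, and 3 of 19 list members with a promoter held it, against 6.76% of all genes. Arg1, arginase 1, was at 0.0840, 0.0804, 0.145 and 0.217 CPM in monocytes and at 3.99, 8.28, 14.7 and 15.6 CPM in SPMs (log2 fold change 6.24 ± 0.56, adjusted p = 7.91e-06). Il1rl1, the IL-33 receptor, was at 0.0420 to 0.181 CPM and at 17.8, 11.1, 11 and 10.6 CPM. Retnla and Arg1 thus rose with no overlap, and Stat6 was not called.

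Enzymes of the eicosanoids, lipid mediators made from arachidonic acid, gave 11 rises and 5 falls of 23 with their receptors (7 and 12 under scaling on housekeeping genes). The rises included Alox15, Ltc4s, prostacyclin synthase Ptgis (8.48 ± 0.74) and thromboxane synthase Tbxas1 (3.08 ± 0.22). Both branches of leukotriene synthesis moved, as Lta4h, which makes leukotriene B4, fell from 749, 1073, 549 and 806 CPM to 59.2, 82.0, 79.5 and 85.8 CPM. Mgst2, another leukotriene C4 enzyme, fell by 4.16 (SE 0.29).

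Adhesion molecules gave 10 rises and 8 falls of 29 (4 and 19 under scaling on housekeeping genes), not far from the 24% and 27.2% of all tested genes. Vcam1 was at 74.5, 97.3, 53.9 and 62.4 CPM in monocytes and at 0.138, 0, 0 and 0.364 CPM in SPMs, a fall of 8.78 (SE 0.54, adjusted p = 6.39e-07). Itga1, a collagen receptor, fell by 4.45 (SE 0.54), and the tetraspanin Cd81 rose by 3.30 ± 0.38. Of 25 immediate early and heat shock genes, which also answer to cell isolation, 7 rose and 11 fell, against the same 24% and 27.2%. Fos was at 703, 310, 1487 and 642 CPM in monocytes and at 50.8, 27.8, 30.9 and 29.1 CPM in SPMs, and Jun fell by 2.27 (SE 0.47). Interferon stimulated genes gave 8 rises and 15 falls of 33, the rises near the 24% of all tested genes. In the ACKR2-/- comparison described below they gave 11 rises and 2 falls. Ifit3 and Irf7 fell by 2.52 (SE 0.31) and 1.94 (SE 0.26), and Ly6a rose by 5.33 ± 0.53. Glycolysis genes gave 1 rise and 9 falls of 22, or 4 rises and 9 falls without WT SPM 1. In ACKR2-/- they gave 8 rises and 6 falls of 22. Hk3 and Gpi1 fell by 3.06 and 1.91, as did G6pdx (1.42) and Pgd (1.58) of the pentose phosphate pathway, while Ldha rose by 1.64 ± 0.30 (-0.074 under scaling on housekeeping genes). Of 23 antioxidant and oxidase genes, 6 rose and 8 fell, not far from the 24% and 27.2% of all tested genes. Of 17 matrix and protease genes 8 rose and 6 fell (6 and 8 under scaling on housekeeping genes), among the former Mmp9 at 19.4 to 38.9 CPM in SPMs against 0.759 to 1.81 in monocytes.

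Genes of other cell types moved with the comparison, and their part in the results was not tested. Neutrophil markers summed to 26010 to 60400 CPM in monocytes and to 70.5 to 164 CPM in SPMs, with 10 of 12 lower in SPMs. The gate excluded Ly6G, and Ly6g was at 6.01, 11.8, 4.84 and 7.99 CPM in monocytes against 0 to 0.638 in SPMs. Marrow monocyte progenitors also express granule genes, so levels of Elane, Mpo, Camp or Ngp from such cells cannot be told apart from those of neutrophil precursors. Mast cell and basophil markers summed to 28.5 to 44.4 CPM in monocytes and to 872, 4716, 10380 and 5014 CPM in SPMs, with 8 of 10 higher. Cma1, mast cell chymase, was at 0 in all monocyte samples and at 387, 1856, 4599 and 2079 CPM in SPMs, at least 19250-fold higher against the floor. Tpsb2 and Mcpt4 were at least 13590-fold and 2868-fold higher, Cpa3 rose by 9.66 ± 0.82, and the basophil protease Mcpt8 fell by 3.37. The values of Cma1, Tpsb2, Mcpt4 and Cpa3 were lowest in WT SPM 1 and highest in WT SPM 3.

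T and B cell markers were higher in SPMs, and the NK cell sum was higher in monocytes through Nkg7 alone. T cell markers summed to 2.39 to 3.58 CPM and 127 to 245 CPM, and all 10 tested rose, as Cd3d did from 0.478 ± 0.132 to 40.1 ± 12.5 CPM. Markers near 0 in monocytes passed the filter on low counts through the SPM libraries, so a fall was hardly open to them. B cell markers summed to 437 to 559 CPM and 709 to 2529 CPM, with 9 of 11 higher. Cd79a, a chain of the B cell receptor, was at 1.98, 2.13, 2.86 and 1.59 CPM in monocytes and at 104, 310, 390 and 273 CPM in SPMs, with no overlap, and Cd79a and Ms4a1 rose by 6.97 and 7.27. Igkc was at 17.4 to 82.1 CPM and at 269 to 1117 CPM. Plasma cell markers gave 5 rises and 1 fall of 8, and their sums overlapped, at 296 to 349 CPM in monocytes and 328 to 1158 CPM in SPMs. NK cell markers summed to 403 to 760 CPM in monocytes and 35.5 to 145 CPM in SPMs, with 3 rises and 1 fall, the fall being Nkg7 (by 3.05). Nkg7 was at 450.5, 759.9, 402.4 and 603.9 CPM in monocytes, almost the whole of that sum. Without WT SPM 1 there were 6 rises of NK cell markers.

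Eosinophil markers gave 3 rises and 3 falls of 6. They summed to 74.7 to 94.5 CPM and 646 to 1590 CPM, and the SPM sum was almost all from Alox15 and from Ear2, an eosinophil-associated ribonuclease at 566 to 955 CPM, which rose by 3.67. The peroxidase gene Epx was at 0 in all SPM libraries, Prg2 at 0 to 0.0733 CPM, and Siglecf was lower in SPMs by 3.53 (SE 0.32). Megakaryocyte markers summed to 4.29 to 41.9 CPM and 158 to 746 CPM, through Pf4, while the platelet gene Ppbp fell. Erythroid markers fell in 5 of 8 tested, or in all 10 tested without WT SPM 2, and ranged from 3.70 to 186 CPM in SPMs. Plasmacytoid dendritic cell markers gave 2 rises and 2 falls of 6 (1 and 5 under scaling on housekeeping genes). Mesothelial, fibroblast and endothelial sums stayed at or under 8.43, 1.39 and 6.97 CPM in all libraries, and no fibroblast marker could be tested. Among 20 housekeeping genes 7 rose and 4 fell (1 and 13 when scaled on themselves), with Actb and B2m at 2.15 ± 0.29 and 2.45 ± 0.23.

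**Figure D5:**
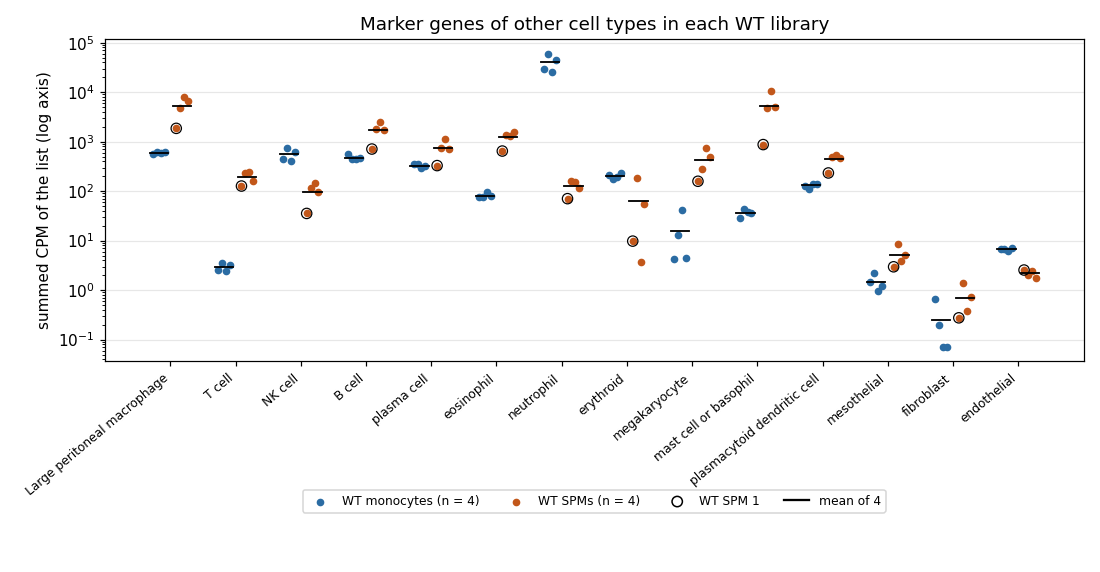
Summed CPM of marker genes of other cell types in each WT library (log axis), with monocytes in blue, SPMs in orange, WT SPM 1 ringed and the mean of 4 as a bar. Neutrophil markers are high in monocytes, at 26010 to 60400 CPM, and mast cell, T cell and large peritoneal macrophage genes are higher in SPMs.

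The same pair of cell types was sequenced from naïve female ACKR2-/- mice, which lack the receptor and were bred by the study, in 4 other samples each. These share no sample with the WT comparison but come from the same tables, so a difference between tables would be repeated in both. Of the 3058 genes higher in WT SPMs, 3040 were tested in ACKR2-/- and 2715 (89.3%) were called higher there, where 27.8% of all 13495 tested genes were. Of the 3461 lower in WT, 3407 were tested and 2656 (78%) were called lower, against 30.8%. The 4 markers kept their directions, with log2 fold changes in ACKR2-/- of -2.86 for Ly6c2, 11.66 for Alox15, 10.52 for Folr2 and 8.27 for Lyve1. Ly6c2 fell less there and was uneven, at 462 ± 528 CPM in ACKR2-/- SPMs against 60.2 ± 24.9 in WT SPMs (SD). Falls in WT that were not called in ACKR2-/- included Hp (-1.29), Plac8 (-1.23), C3 (-1.77), Tlr2 (-0.31) and Fcgr1 (0.73). The balance of some gene lists turned in ACKR2-/-. Interferon stimulated genes gave 11 rises and 2 falls of 33, and glycolysis genes 8 and 6 of 22. Cytokines gave 14 and 8 of 25, their receptors 11 and 5 of 28, and immediate early and heat shock genes 10 and 7 of 26. Opposite calls were made for 8 genes, which were named after their values were seen. Cd8a, a T cell coreceptor, and Ctse, an aspartic protease, were higher in WT SPMs and lower in ACKR2-/- SPMs than in the monocytes of their genotype. Btg2, Fpr2, Gdf3, Klhl6, Ly6i and Rab7b were lower in WT and higher in ACKR2-/-. In a fit of all 16 samples, which tested the difference itself, 82 of 13914 genes passed. For Rab7b, a GTPase of endosomes, the log2 fold change was -2.43 in WT and 2.61 in ACKR2-/- (difference -4.95, adjusted p = 7.67e-08). The differences for Ctse, Cd8a, Gdf3 and Btg2 also passed, and those for Fpr2, Klhl6 and Ly6i did not. The WT call of Klhl6 was lost when any 1 of the 8 libraries was left out, with log2 fold changes of -0.59 to -0.27.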

How the data were processed

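RNA was extracted on RNeasy micro columns, amplified from its poly-A fraction by the SMARTer method and sequenced by Novogene as paired-end reads. The submitters' processing notes name HISAT2 2.0.5, featureCounts 1.5.0-p3, DESeq2 and mm10. What the authors deposited are raw read counts, not normalized, with 1 table per cell type, and they were used as they stand. The tables were joined on the gene identifier. This kept 53743 genes. It left out 574 unnamed loci of the monocyte table and 331 of the SPM table. It also left out 58 genes found only in the monocyte table and 789 found only in the SPM table. The joined genes had equal lengths in 98.5% of cases, and 36 scaffolds were listed in the monocyte table only. All columns were matched to samples by their names.

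In R 4.3.3 with edgeR 4.0.16, genes were filtered by filterByExpr (minimum count 10, minimum total 15), scaled by TMM and compared by the quasi-likelihood test, adjusting p by the Benjamini-Hochberg method, with the study's thresholds for a call (adjusted p 0.05, log2 fold change of 0.5 in size). CPM are scaled on tested genes, so that those of SPMs may sum above 1000000. Permutation tests were exact and two-sided. A count of 0 was taken to allow 3 counts, and such floors cover counting error only, since PCR copies were not told apart. P-values measure the spread between pooled samples. On simulated data of this comparison (12579 genes), edgeR recovered 81.2% of 4-fold and 18.6% of 2-fold changes, with 3% false calls. DESeq2 1.42.0 recovered 89.6% and 35.3%, with 18.7% false calls. Far fewer genes changed there than were called here, so these shares need not hold for the WT comparison. Every pair of replicates differed beyond counting noise (chi-square over degrees of freedom at least 11.7).

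Named genes were the 4 markers, the sort genes, the 12 largest changes in each direction (no overlap, mean of at least 50 CPM in the higher group, named symbols), the 5 most abundant genes of each cell type, genes the study discusses and members of gene lists chosen by role or size, and a few that met this rule are not reported here. The exclusion of genes counted differently from the 12, and the test of the genes called oppositely in ACKR2-/-, were chosen after values were seen. The members and lists were chosen with earlier results of these data known, so no list was tested as a set. Motifs were searched on both strands in the 250 bases upstream of RefSeq starts (GRCm38.p6). Alternatives were DESeq2, other scalings, filters, call rules and fits, the replicate number as a block and each library left out in turn.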

Additional observations from a re-analysis of the deposited data

Results flagged for a closer look

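A library was singled out where its gap to the nearest of its group was too large a part of the group's range by Dixon's critical value for 4 samples, in groups whose highest value was at least 1 CPM. Of 368 groups 34 passed, where chance gives about 1 in 20, and 23 of the 34 were in WT SPM 1. In CPM, WT SPM 1 was high for Ccr2 (2607, others at most 1035), Fn1 (4107, at most 1167), Mrc1 (261, at most 94.4), Maf (72.5, at most 14.4), Lyve1 (35.7, at most 20.9), Itgam (346), Ptprc (463), Irf4 (44.0), Nfkb1 (66.5), Abca1 (15), Il1rl1 (17.8), Itga1 (2.69), Fos (50.8), Jun (30.1) and Btg2 (68.4). It was low for H2-DMa (2068, others at least 3491), H2-DMb1 (1417, at least 2957), Ctss (2599, at least 7037), Ifi30 (384), Ccr1 (107), C5ar1 (64.4), the summed progenitor and granule genes (96.6) and the summed lysosomal genes (14680, at least 28510).

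In other libraries, WT SPM 3 was high for Ngp (1.91 CPM) and Mcpt8 (3.95). WT monocyte 1 was high for H2-Aa (64.8), Saa3 (21.3) and the summed B cell markers (559). WT monocyte 2 was low for Cd209a (28.1) and Ctss (827). WT monocyte 3 was high for Ppbp (26.5), Epx (1.74) and Prg2 (12.1), and WT monocyte 4 for Fabp4 (2.13).

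The difference between SPMs and monocytes was itself different in WT and ACKR2-/-, by the fit of all 16 samples in edgeR, for 5 of the 8 genes with opposite calls. On the log2 scale (WT minus ACKR2-/-) it was -4.95 for Rab7b, 3.78 for Ctse (adjusted p = 1.21e-06), 4.68 for Cd8a (adjusted p = 0.000454), -2.81 for Gdf3 (adjusted p = 0.00195) and -2.34 for Btg2 (adjusted p = 0.00442). Cd8a averaged 2.44 CPM in WT SPMs and 1.96 in ACKR2-/- SPMs, but 0.195 CPM in WT monocytes and 3.86 in ACKR2-/- monocytes. Its difference thus lay mainly in the monocytes. T cell markers also moved in both contrasts, where all 10 tested rose in WT, and 8 of 11 rose and 1 fell in ACKR2-/-. Among them, Cd3d averaged 0.478 CPM in WT monocytes and 10.5 in ACKR2-/- monocytes, but 40.1 and 39.2 CPM in the SPMs. The part of T cell transcripts in Cd8a was not tested.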

How the results depend on the processing

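The numbers of genes higher in SPMs, lower in SPMs and called alike in ACKR2-/- stayed within 1.5 times of the values reported, except under 2 settings. Scaling on housekeeping genes gave 912 higher, 9024 lower and 9496 alike, and an absolute log2 fold change over 2 gave 1214, 1140 and 1805. DESeq2 gave 3723, 3103 and 5649, and RLE size factors 3520, 2942 and 5422, with 54.5% of the called genes higher against 46.9% with TMM. Leaving out 1 library in turn gave 2762 to 3915 higher, 2889 to 4447 lower and 5002 to 6655 alike, with the highest values without WT SPM 1. With the replicate number as a block the counts were 2778, 3433 and 5262. The same-numbered samples correlated at 0.119, 0.089, -0.235 and 0.0366, and those of different number at -0.23 to 0.297. These values give no sign of pairing by number, and with so few pools they cannot exclude it. Without the genes counted differently, an alternative chosen after seeing the data, 2935 were higher, 3363 lower and 5168 alike.

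Of 197 named genes with a test, 5 changed sign under scaling on housekeeping genes, to -0.90 (Adgre1), -1.15 (Ptprc), -0.90 (Csf1r), -0.25 (Hmox1) and -0.074 (Ldha), and no other setting turned a sign. Among genes that kept their sign, that scaling took the call from 10 and gave it to 4. Of the genes that turned, Hmox1 and Ldha lost their call, Ptprc gained a call as lower, and Adgre1 went from higher to lower. The cause was not tested. The block called Nfkb1 lower (-0.98) and lost Klhl6 (-0.58), and changed no other call of a named gene. The fit of all 16 samples lost Adgre1, Fpr2 and Ly6i and called Nfkb1 lower (-0.87). Without a filter on low counts Nfkb1 was also called lower (-0.98). Most changes of 2-fold were missed by edgeR in the simulation. Far fewer genes changed there than were called in the WT comparison, so the shares missed and falsely called in the latter were not measured.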
